A study of Homo sapiens with 2 samples.

Results

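The gene intervals described here are those named LINC and a number, the placeholder symbols given to long intergenic RNA genes. They were chosen by symbol alone, on chromosomes 1 to 22, and no measured value entered the choice. The deposited table of gene intervals held 192 of them among 40237 intervals in all, and each symbol occurred once. Of the 192, 189 lay outside chromosome 8 and 3 on chromosome 8, which is set apart because KBM7 cells are known to carry an additional copy of it. The cells were KBM7, an established near-haploid line from chronic myeloid leukemia, with no treatment named. Chromatin was immunoprecipitated with the Abcam antibody ab8898 against trimethylated lysine 9 of histone H3 (H3K9me3), in 1 library. A library with IgG was not analysed here. With 1 library there is no replicate check, so every difference below is a description of this library without a test across samples.

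H3K9me3 is the mark of constitutive heterochromatin. It is written by enzymes such as SETDB1 and SUV39H1 and bound by HP1 proteins, and it covers satellites, transposable elements and zinc finger gene clusters. Long intergenic RNAs are transcribed by RNA polymerase II, mostly at low levels and in few cell types, and many of their promoters and exons derive from transposable elements. Some of the LINC symbols have since been replaced: a number of these genes turned out to host microRNAs or to encode small proteins.

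The start sites are shown first, since peaks at the start are one of the measures described. Below are the promoters of LINC00454, LINC00112 and LINC00207, which had the highest scores among members with a peak within 1 kb of the start, and then of LINC00324, LINC00338 and LINC00339, which had the lowest scores among members without one. The choice was limited to intervals of 1 kb or more whose RefSeq length was within 10% of the deposited interval. Each sequence runs 5′ to 3′ on the transcribed strand, from 250 bases before the RefSeq start to 50 after it, with CG dinucleotides in capitals.
LINC00454: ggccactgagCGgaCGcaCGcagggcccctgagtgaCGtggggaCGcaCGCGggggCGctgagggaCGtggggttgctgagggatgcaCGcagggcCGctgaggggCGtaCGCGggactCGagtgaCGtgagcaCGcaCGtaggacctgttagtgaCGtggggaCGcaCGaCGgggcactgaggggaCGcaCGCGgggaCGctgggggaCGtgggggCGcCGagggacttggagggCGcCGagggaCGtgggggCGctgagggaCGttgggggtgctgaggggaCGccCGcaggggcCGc
LINC00112: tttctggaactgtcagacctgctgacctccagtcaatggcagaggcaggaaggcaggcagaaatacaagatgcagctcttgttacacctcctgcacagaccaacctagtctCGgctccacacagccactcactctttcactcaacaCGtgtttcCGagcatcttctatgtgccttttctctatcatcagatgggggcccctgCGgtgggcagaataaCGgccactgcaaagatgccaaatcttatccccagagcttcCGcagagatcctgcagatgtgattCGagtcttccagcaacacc
LINC00207: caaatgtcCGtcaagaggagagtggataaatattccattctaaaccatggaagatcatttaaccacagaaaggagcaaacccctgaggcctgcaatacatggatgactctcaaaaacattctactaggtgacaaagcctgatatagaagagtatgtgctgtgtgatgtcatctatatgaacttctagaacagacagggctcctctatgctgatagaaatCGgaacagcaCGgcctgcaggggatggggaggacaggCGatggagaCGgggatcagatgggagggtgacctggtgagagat
LINC00324: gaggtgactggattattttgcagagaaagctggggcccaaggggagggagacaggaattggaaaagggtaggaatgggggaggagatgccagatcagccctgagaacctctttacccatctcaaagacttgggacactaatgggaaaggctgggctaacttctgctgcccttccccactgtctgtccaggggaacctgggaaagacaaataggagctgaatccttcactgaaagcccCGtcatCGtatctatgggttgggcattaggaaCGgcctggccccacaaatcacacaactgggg
LINC00338: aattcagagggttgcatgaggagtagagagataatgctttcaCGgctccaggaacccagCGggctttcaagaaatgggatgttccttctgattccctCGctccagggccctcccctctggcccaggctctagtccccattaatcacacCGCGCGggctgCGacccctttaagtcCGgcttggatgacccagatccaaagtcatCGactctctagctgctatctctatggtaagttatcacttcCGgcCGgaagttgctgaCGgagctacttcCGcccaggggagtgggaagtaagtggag
LINC00339: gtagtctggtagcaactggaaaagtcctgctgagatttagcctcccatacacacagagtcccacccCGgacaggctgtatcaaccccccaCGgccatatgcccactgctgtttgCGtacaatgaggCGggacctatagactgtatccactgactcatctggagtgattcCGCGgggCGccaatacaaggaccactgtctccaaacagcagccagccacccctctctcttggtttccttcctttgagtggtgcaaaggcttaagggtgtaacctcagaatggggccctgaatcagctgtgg
In the GRCh38.p14 build of RefSeq these windows lie at chr13:113883437-113883736 (minus strand), chr21:41716186-41716485 (plus), chr22:44569090-44569389 (plus), chr17:8223994-8224293 (minus), chr17:77088393-77088692 (plus) and chr1:22024941-22025240 (plus). The 3 marked starts held 37, 7 and 5 CG dinucleotides, and the 3 unmarked ones held 3, 13 and 7. The LINC00454 window, with 74.0% G and C, was thus far richer in CG than the other 5. LINC00338, now SNHG20, a small nucleolar RNA host gene, was the only 1 of the 6 with the letters GGGCGG on either strand.

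Over the 130 members outside chromosome 8 that had a RefSeq promoter of this length, the median was 6.0 CG dinucleotides. The 36 with a start peak had a median of 7.0 and the 94 without one 5.0. The share with 10 or more was 33.3% with a start peak and 35.1% without. In the 73 members whose RefSeq length was within 10% of the interval, the medians were 7.0 (n = 17) and 4.0 (n = 56), and the shares with 10 or more 23.5% and 32.1%. No one direction held over these values. Over all 130 both sets were close to the 11145 long noncoding RNA promoters of RefSeq outside chromosome 8, with a median of 5.0 and 32.5%. The 15100 protein-coding promoters had a median of 22 and 73.0%. The letters GGGCGG, searched on both strands, stood in 25% of member promoters with a start peak and 22.3% of those without, against 25.5% of long noncoding, 58.9% of protein-coding and 44.7% of all promoters. In the 73 of like length the order was the other way, with 11.8% and 19.6%. The RefSeq start can differ from the start of the deposited interval, which is on another build.

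The label "intergenic" held for most but not all members. Of the 192, 135 overlapped no other interval of the table and 57 did (29.7%, against 55.4% of other autosomal intervals). Only 13 overlapped a protein-coding interval. The overlapping members include 2 nested pairs: LINC00392 lies in LINC00393, and LINC00344 in LINC00343, so their reads are counted in both. RefSeq matched 139 members by symbol and 39 by an older name, and 14 had no entry. Of the matched genes, 164 are listed as long noncoding RNAs, 2 as pseudogenes and 12 as protein-coding. Among the 12 are LINC00116, now MTLN, which encodes a small mitochondrial protein, and LINC00094, now BRD3OS. The 12 also include LINC00464 and LINC00444, matched by an older name to STARD13 and SUCLA2. Such matches may reflect merged records, so the listed type need not describe the interval itself.

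The members were also unevenly placed. Chromosome 13 carried 84 of them (43.8%, against 2.01% of other autosomal intervals) and chromosome 21 carried 27 (14.1% against 1.36%). Chromosome 19, with its zinc finger clusters, carried 0, and 2 members lay within 100 kb of a zinc finger gene (1.04% against 5.11% of other intervals). Because of this the results below are also given for chromosomes 13 and 21 alone and for the rest.

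Read depth over the members was ample for the longer ones and thin for a few. The members held 9 to 29140 reads each, 325466 in sum, which was 0.415% of the 78512210 reads over all intervals, where reads in overlapping intervals count more than once. Lengths ran from 0.52 kb to 690 kb, with a median of 7.20 kb outside chromosome 8. The score is the number of reads per kb of interval. It falls with length over short intervals, so each member was set against the median of the 200 other intervals outside chromosome 8 nearest to it in length. Intervals around single scores and shares are 95% (exact Poisson and Clopper-Pearson) and cover counting error only.

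Outside chromosome 8 the LINC intervals carried more H3K9me3 reads than other intervals of their length. The median score was 48.1 (95% interval of the median 44.0 to 56.2, n = 189), and the middle of the members ranged from 35.7 (25th percentile) to 77.5 (75th percentile). The median for other intervals of like length was 35.7, a ratio of 1.35, and 135 of the 189 members lay above their own like-length value. A score of 2 times the like-length value or more was reached by 51 members (27.0%, interval 20.8 to 33.9), where 16.7% of other intervals reached it. The 16.7% covers other intervals of all lengths. From 3 to 10 kb the shares were 30.6% of members and 21.8% of others, and above 100 kb 7.14% and 3.82%. Among the length classes that held members, their share was lower only from 30 to 100 kb, with 9.68% against 11.5%. A score of 0.5 times or less was found for 15 (7.94%, interval 4.51 to 12.8), where 19% of other intervals fell so low. The members thus stood more often above and less often below the interval of like length. The upper boundary cut through a dense range: LINC00445 was just inside it at 2.01 times and LINC00476 just outside at 1.99 times.

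The size of the difference depended on which intervals served as comparison. Against protein-coding intervals of like length the ratio of medians was 1.75. Against antisense and clone-named intervals, which are mostly noncoding too, it was 1.07. With the 50 nearest intervals on the member's own chromosome it was 1.18. The higher score of the members was thus largest against protein-coding intervals, and small against antisense and clone-named ones. Gene type and placement by chromosome were not separated in these comparisons.

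**Figure D1:**
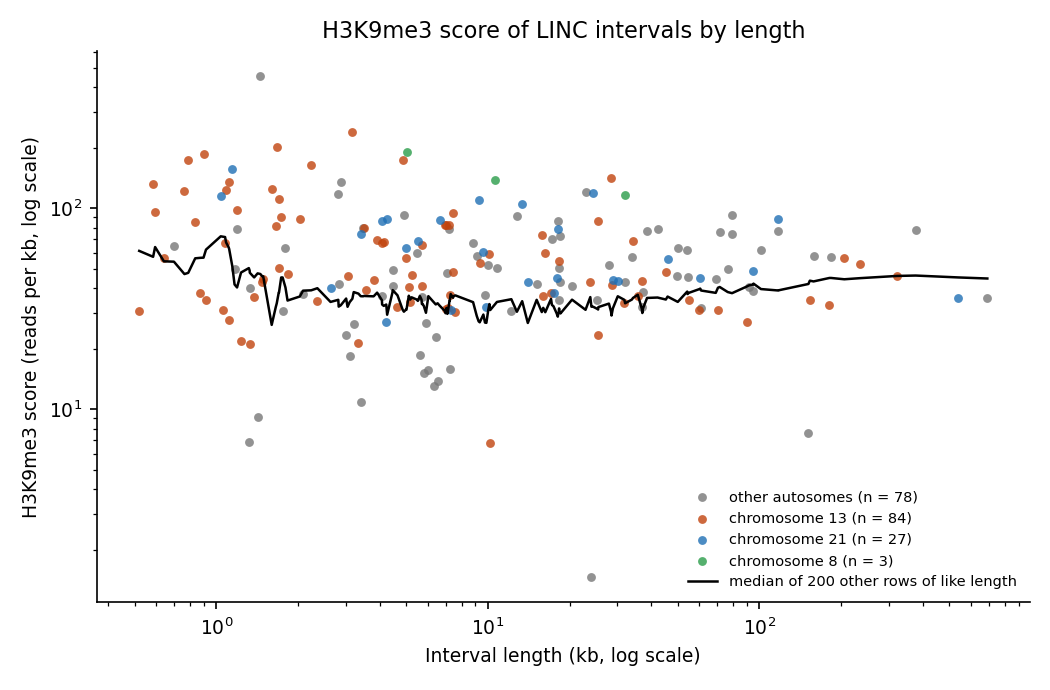
H3K9me3 score (reads per kb, log scale) of each of the 192 LINC intervals against its length (kb, log scale), coloured by chromosome, with the median of 200 other intervals of like length as a line. The points lie above the line over most lengths, with 135 of 189 above it outside chromosome 8, and the 3 on chromosome 8 all lie above 115.

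The excess was seen in every length class that held members. From 0.5 to 1 kb, 11 members had a median score of 84.9 against 56.3 for all other intervals of the class. From 1 to 3 kb the medians were 56.8 (n = 36) and 42.3, and from 3 to 10 kb 46.1 (n = 62) and 33.9. It was most regular between 10 and 30 kb, where 31 of 35 members lay above their like-length value, with medians of 50.3 and 32.5. From 30 to 100 kb the medians were 44.8 (n = 31) and 36.6, and above 100 kb 54.7 (n = 14) and 43.2. In the last class the intervals of the member median (35 to 77.3) and of the other intervals (42.7 to 43.7) overlapped, as they did below 3 kb.

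The highest scores among members of 1 kb or more were of different kinds. LINC00273 (chr16:33961052-33962503, hg19, minus strand) had 660 reads and a score of 455 (421 to 491), 9.68 times its like-length value of 47.0. No peak lay in it or within 10 kb on either side, so its reads stood in no region called as enriched. It was the extreme of the list: the next, LINC00391, had 240.

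LINC00391 (chr13:95351948-95355116, minus strand) had 760 reads and a score of 240 (223 to 258), 6.78 times its like-length value. It lay wholly inside 1 peak of 7200 bp. LINC00372 (chr13:51657937-51659535, plus strand), now part of the protein-coding gene C13orf42, had 124 (108 to 143), 4.75 times its like-length value, with 63.4% of it in a peak. LINC00415 on the same chromosome had 134 (114 to 158) and 48.4%. These are short intervals in single enriched regions.

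Near the end of chromosome 13, 3 members shared a broad marked region. LINC00454 (chr13:114581673-114586528, minus strand) had 172 (161 to 184) and LINC00453 (chr13:114586640-114588308, plus strand) 201 (180 to 224), or 5.53 and 6.0 times their like-length values. One peak of 16950 bp contained both. LINC00452 (chr13:114598076-114626485, plus strand) had 140 (136 to 145), 4.6 times its like-length value, with 64.6% in peaks, the widest of 26700 bp. RefSeq now joins LINC00453 to LINC00452, and the starts of LINC00453 and LINC00454 are near-neighbours on opposite strands, so these 3 are not independent cases.

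On other chromosomes the high members were single. LINC00112 (chr21:43136596-43137740, plus strand) had 156 (134 to 181), 3.05 times its like-length value, and was fully in a peak. LINC00207 (chr22:44965219-44968090, plus strand) had 135 (122 to 149), 4.10 times, with 73.1% in a peak. LINC00029 (chr20:61665569-61668380, minus strand) had 117 (105 to 130), 3.35 times, with 66.9%. LINC00161 on chromosome 21 had 115 (95 to 137) and 87.8% in a peak, but only 1.59 times its like-length value, since short intervals score higher in general.

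A high score did not always come with a peak. LINC00283 (chr13:103395340-103397574, plus strand) had 164 (148 to 182) and no peak inside, while 38.1% of the 10 kb before its start was in peaks. LINC00421 had 111 (95.3 to 128) and LINC00354 98.2 (81.2 to 118), both on chromosome 13 and without a peak. LINC00200 on chromosome 10 had 92.4 (84.0 to 101), no peak, and flanks in peaks over 42.0% and 54.6% of 10 kb before and after it. Of the 51 members at 2 times or more, 37 held a peak and 14 did not. The split was similar in the 6117 other intervals at that level, where 4259 held a peak and 1858 did not.

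The lowest scores lay far under the like-length values. LINC00281 (chr22:21655279-21679331, minus strand) had 35 reads over 24.1 kb, a score of 1.46 (1.01 to 2.02) against 32.3. RefSeq lists its symbol under FAM230C, of a family with near-identical copies. LINC00349 on chromosome 13 had 6.76 (5.26 to 8.56) and LINC00115 on chromosome 1, with 9 reads, 6.83 (3.12 to 13). LINC00167 on chromosome 11, now PRDM10-DT, had 9.16 (4.88 to 15.7). These 4 held no peak.

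LINC00152 (chr2:87754887-87906324, plus strand), now CYTOR, a cytoplasmic RNA raised in many tumours, was low over a long interval. It had 1147 reads over 151 kb, a score of 7.57 (7.14 to 8.03) against 41.9, and 1 peak of 750 bp. CYTOR has a near-identical copy on the same chromosome. The sources used here do not say how reads with several matches were treated, so the levels of LINC00152 and LINC00281, and the high score of LINC00273, are uncertain.

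The longest members were near or under the level of their length class, with 1 exception. LINC00276 on chromosome 2 (690 kb) had 35.8 (35.3 to 36.2) against 44.6, with 0.478% of it in peaks. LINC00478 (chr21:17442842-17982094, plus strand), now MIR99AHG, the host of the MIR99A, MIRLET7C and MIR125B2 cluster, had 35.7 (35.2 to 36.2) against 45.2, with 1.5% in peaks. LINC00464 and LINC00393 on chromosome 13 had 46.0 and 52.7 against 45.9 and 44.8. LINC00299 (chr2:8147901-8523751, minus strand) stood apart at 77.5 (76.6 to 78.4) against 46.1, with 44 peaks over 16.8% of its 376 kb.

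Well-studied members were spread over the range. LINC00261, a neighbour of FOXA2 that is active in endoderm, had 86.6 (82.3 to 91.0), 3.0 times its like-length value, with 18.4% in peaks and 70.2% of the 10 kb before its start. LINC00473, a cAMP-responsive RNA, had 74.4 (72.5 to 76.3), 1.97 times, with 16 peaks. LINC00461, now MIR9-2HG and the host of MIR9-2, had 57.0 (55.9 to 58.1), 1.27 times, with 12 peaks. LINC00116, the MTLN gene, had 57.1 (54.5 to 59.7), 1.63 times, with 1 peak of 7650 bp and none at its start. LINC00312 had 78.9 (63.8 to 96.6), 1.96 times, and no peak.

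Peak cover, the share of an interval that lies in deposited peaks, was also higher on average. Outside chromosome 8 the mean cover was 11.5%, against 7.85% for intervals of like length, a ratio of 1.47. The median cover was 0, because 100 members held no peak (52.9%, against 66.7% of other intervals). Of the rest, 41 were covered under 10%, 34 between 10% and 50%, and 14 at 50% or more (7.41%, against 5.31%). These 14 gave 52.7% of the summed cover. Fully covered were 6 of the 189, against 898 of the 36520 other intervals. These 6 gave 27.6% of the summed cover: LINC00112 on chromosome 21 and LINC00391, LINC00403, LINC00404, LINC00453 and LINC00454 on chromosome 13.

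Of the 189 members, 89 held a peak (47.1%, interval 39.8 to 54.5), where 33.3% of all other intervals outside chromosome 8 held one and 33.2% of those of like length did. The 89 had a median length of 25.5 kb and a median score of 66.9. The 100 without had 4.46 kb and 39.9. The presence of a peak thus went with length, as it does in other intervals. Between 30 and 100 kb 26 of 31 members held a peak (83.9% against 57.4% at like length), and above 100 kb all 14 did (91.9% at like length).

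The peaks themselves were of ordinary width. The 323 peaks that met members outside chromosome 8 had a median width of 1050 bp (25th to 75th percentile 750 to 1800), against 900 bp (600 to 1650) over the 116126 autosomal peaks outside chromosome 8. Those of 3 kb or wider made up 10.2% and 9.12%. The widest besides those on chromosome 13 met LINC00277 (chr15:69365266-69388148, plus strand), now EWSAT1, an RNA first described in Ewing sarcoma. This member had a score of 120 (116 to 125), a peak of 11100 bp over 12.4% of it, and 82.7% of the 10 kb before its start in peaks. KBM7 is known to carry an additional copy of a stretch of chromosome 15 that includes this gene, and the score is not scaled for copies. The 500 other intervals from 60 to 90 Mb of chromosome 15 had a median of 1.85 times their like-length values, against 1.04 times elsewhere on that chromosome, so the 3.85 times of LINC00277 is to be read against 1.85. LINC00469 on chromosome 17 had 17 peaks, the widest of 8100 bp, over 39.8% of its 79.3 kb.

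Start sites carried peaks more often than in intervals of like length. A peak lay within 1 kb of the start, on either side and by strand, in 48 of 189 members (25.4%, interval 19.4 to 32.2). The share was 13.7% over all other intervals and 14.0% at like length, a ratio of 1.81. At the ends the count was 39 (20.6%, interval 15.1 to 27.1) against 14.0%, and at the midpoints 31 (16.4%, interval 11.4 to 22.5) against 13.9%. The members exceeded intervals of like length at the start by more than at the midpoint, where the interval of the share held the like-length value. Against antisense and clone-named intervals the ratio at the start was 1.60.

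**Figure D2:**
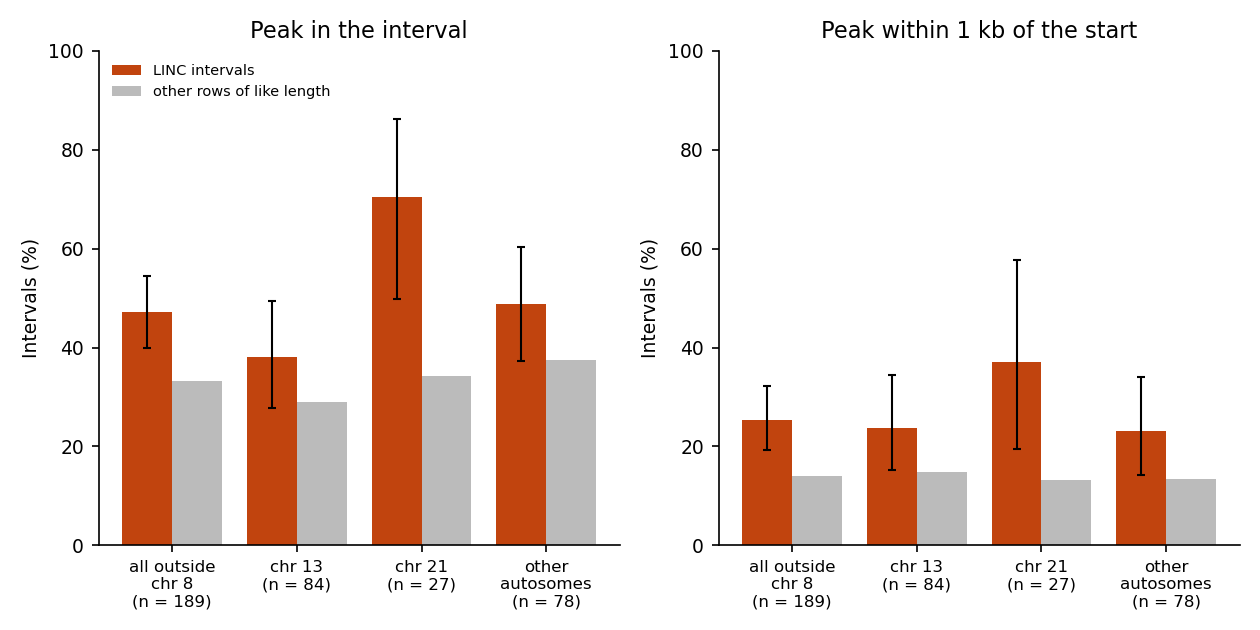
Share of LINC intervals (%) with a peak in the interval (left) and with a peak within 1 kb of the start (right), beside other intervals of like length, for all 189 outside chromosome 8, chromosome 13 (84), chromosome 21 (27) and the other autosomes (78). Error bars are 95% Clopper-Pearson intervals. The start shares are 25.4%, 23.8%, 37.0% and 23.1%, each above the like-length bar.

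In short intervals the windows at the start, midpoint and end overlap, so the comparison was repeated in the 129 members longer than 4 kb, where they do not. There 28 had a start peak (21.7%, interval 14.9 to 29.8, like length 12.8%), 24 an end peak (18.6%, interval 12.3 to 26.4, like length 12.9%) and 16 a midpoint peak (12.4%, interval 7.26 to 19.4, like length 12.5%). The order start, end, midpoint was thus also found there, although the intervals of the shares overlap one another. By length, a start peak was found in 17 of 62 members of 3 to 10 kb (27.4%, like length 13.3%). The counts were 9 of 35 from 10 to 30 kb (25.7%, like length 11.7%) and 6 of 31 from 30 to 100 kb (19.4%, like length 11.8%). Of the 14 members above 100 kb 0 had one, which allows a share of up to 23.2%, where 16.6% of intervals of like length had one.

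The 48 members with a marked start were of different kinds. The 25 with a peak at both start and end had a median length of 2.87 kb, a median score of 122 and a mean cover of 57.2%, and 11 of them were under 2 kb. The 23 with a start peak alone had 8.82 kb, 69.6 and 12.4%. The 127 with neither had 7.29 kb, 40.8 and 2.28%. In 9 members the start peak lay outside the interval, which in all but the shortest, LINC00413, puts it before the first base: LINC00174, LINC00239, LINC00264, LINC00304, LINC00322, LINC00411, LINC00413, LINC00424 and LINC00444.

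**Figure D3:**
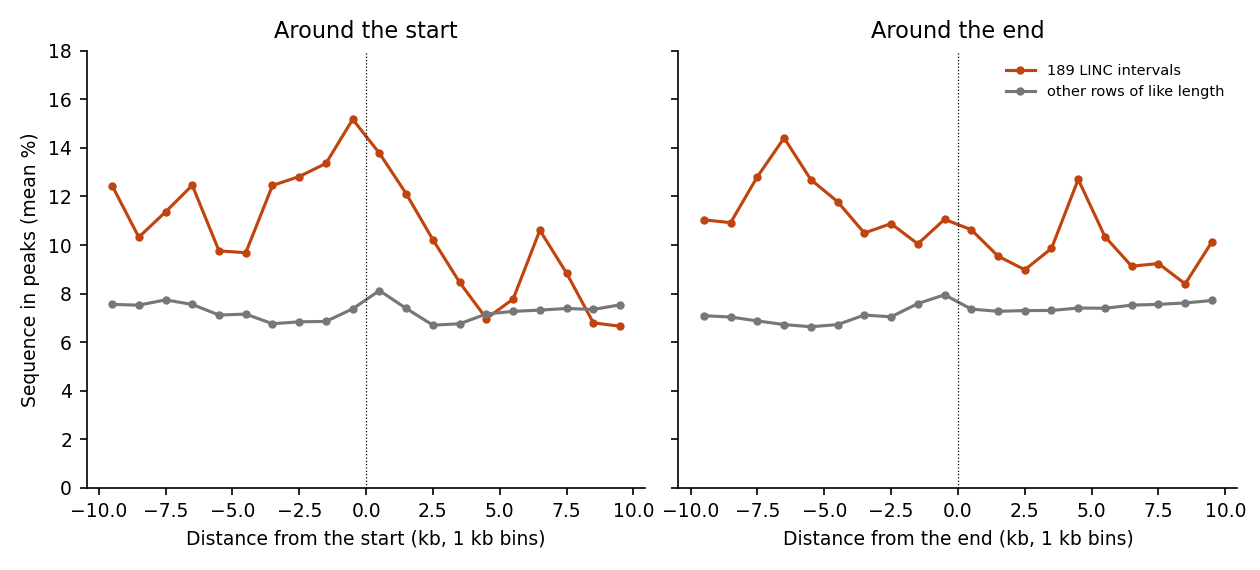
Mean share of sequence in peaks (%) in 1 kb bins around the start (left) and the end (right) of the 189 LINC intervals outside chromosome 8 and of other intervals of like length. Member cover is highest in the kb before the start, 15.2% against 7.37%, and at 4 to 5 kb after the start both are near 7%.

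The profile around the starts was highest next to the start in the members and nearly flat in other intervals. Members with a peak in the bin numbered 39 in the kb before the start. They numbered 29 at 5 to 6 kb before it and 36 at 9 to 10 kb before it. Around the ends, member cover reached 14.4% at 6 to 7 kb before the end, against 6.72% at like length. The median member was 7.20 kb long, so in many members this bin lies at or before the start. It therefore cannot show whether a high value was particular to starts. Cover was 15.2% in the kb before the start and 13.8% in the kb after it, against 7.37% and 8.12% at like length. It was 12.5% at 9 to 10 kb before the start and 6.97% at 4 to 5 kb after it, where intervals of like length had 7.55% and 7.16%. The side before the start therefore stayed above the like-length level over the whole 10 kb, and the side after it did not. In members shorter than 10 kb the later bins after the start lie beyond the interval. In the 10 kb before the start the mean was 12% against 7.25%, and in the 10 kb after the end 9.89% against 7.44%. Along the bodies of the 142 members of 3 kb or more, cover fell from 12.7% in the first of 10 equal parts to 6.28% in the sixth and was 9.51% in the last, where intervals of like length had 7.11%, 7.10% and 7.14%.

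Chromosomes 13 and 21 held 111 members and most of the excess in cover. On chromosome 13 the median score was 48.1 (42.6 to 59.9, n = 84) against 36.5 at like length, and 25 members reached 2 times that value (29.8%, against 18.3% of the chromosome's other intervals). Mean cover was 12.7% against 8.41%. A peak lay in 32 members (38.1% against 28.9% at like length) and at the start of 20 (23.8% against 14.8%). Set against the 50 intervals nearest in length on chromosome 13 itself, the values were closer: a median score of 44.2, a cover of 9.55%, a peak in 33.0% and a start peak in 19.1%. By that measure 16 of 84 members, not 25, reached 2 times the like-length score, where 16.7% of all other intervals outside chromosome 8 did.

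Along chromosome 13 the members did not behave alike. Up to 40 Mb, 28 members had a median of 52.4 against 37.9 at like length, and 7 reached 2 times it. From 40 to 60 Mb, 13 members had 67.5 against 34.9, and 6 reached 2 times (46.2%, other intervals 15.2%). Members of both stretches thus stood above the level of their length, and those from 60 to 100 Mb were close to it in median score. From 60 to 80 Mb, 18 members had 38.8 against 35.6, with a mean cover of 0.847% against 7.42%. Of these, 0 reached 2 times (other intervals 10.4%). From 80 to 100 Mb, where LINC00391 lies, 11 members had 37.8 against 36.8, and 2 reached 2 times (18.2%, other intervals 21.4%). Beyond 100 Mb, 14 members had 115 (47.0 to 173) against 37.2, a cover of 38.8% against 9.14%, and 10 at 2 times or more (71.4%, against 30.3% of the other intervals there). The far end thus had the largest share of high members among these stretches, and the other 15 of the 25 lay before it. In order along the chromosome, mean cover up to 100 Mb was 1.03, 1.23, 0.114 and 1.37 times the like-length value. Beyond 100 Mb it was 4.25 times that value.

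Those 14 members fell into a mixed run. LINC00449 had 21.1, LINC00343 34.8, LINC00344 47.0 and LINC00443 54.6, none with a peak. LINC00411 had 79.9, LINC00460, an RNA raised in several carcinomas, 81.6, LINC00354 98.2 and LINC00283 164, also without one. The other 6 all held peaks. LINC00346 had 132 with 79.0% in a peak, and the neighbours LINC00404 and LINC00403, near SOX1, had 173 and 185, both fully covered. LINC00454, LINC00453 and LINC00452, described above, were the others. Without the members beyond 100 Mb of chromosome 13, the mean cover of all members outside chromosome 8 was 9.34%, against 7.67% at like length.

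On chromosome 21 the members stood higher still. The median score was 60.5 (43.2 to 86.8, n = 27) against 34.1 at like length, and 24 of 27 lay above their like-length values. Of the 27, 12 reached 2 times the like-length value (44.4%, against 19.7% of the chromosome's other intervals) and 0 fell to 0.5 times (other intervals 11.6%). Mean cover was 19.8% against 7.56%. A peak lay in 19 members (70.4% against 34.1%) and at the start of 10 (37.0% against 13.3%). The nearest intervals in length on chromosome 21 itself had a score of 42.9, a cover of 8.65%, a peak in 39.0% and a start peak in 13.5%, all below the members. By that measure 5 of 27 members, not 12, reached 2 times the like-length score. Of all other intervals outside chromosome 8, 16.7% reached it against their own chromosome.

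In the first 30 Mb of chromosome 21, 7 of 8 members lay above their like-length values, but 0 reached 2 times them (other intervals 8.45%). The median was 44.4 against 34.0, from LINC00314 at 32.2 to LINC00161 at 115. From 30 to 40 Mb, LINC00310 had 109 with 59.2% in peaks, LINC00160 105 with 35.9% and LINC00159 88.6 with 25.7%, while LINC00189 had 48.8 and LINC00307 39.9. From 40 to 50 Mb, 14 members had a median of 71.5 against 32.9 at like length, 9 reached 2 times the like-length value and 7 had a start peak. Highest there were LINC00112 at 156 and LINC00334 at 118, lowest LINC00163 at 27.0 and LINC00319 at 31.3. LINC00111, LINC00479 and LINC00112 lie within 40 kb of each other and had 78.7, 88.6 and 156.

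**Figure D4:**
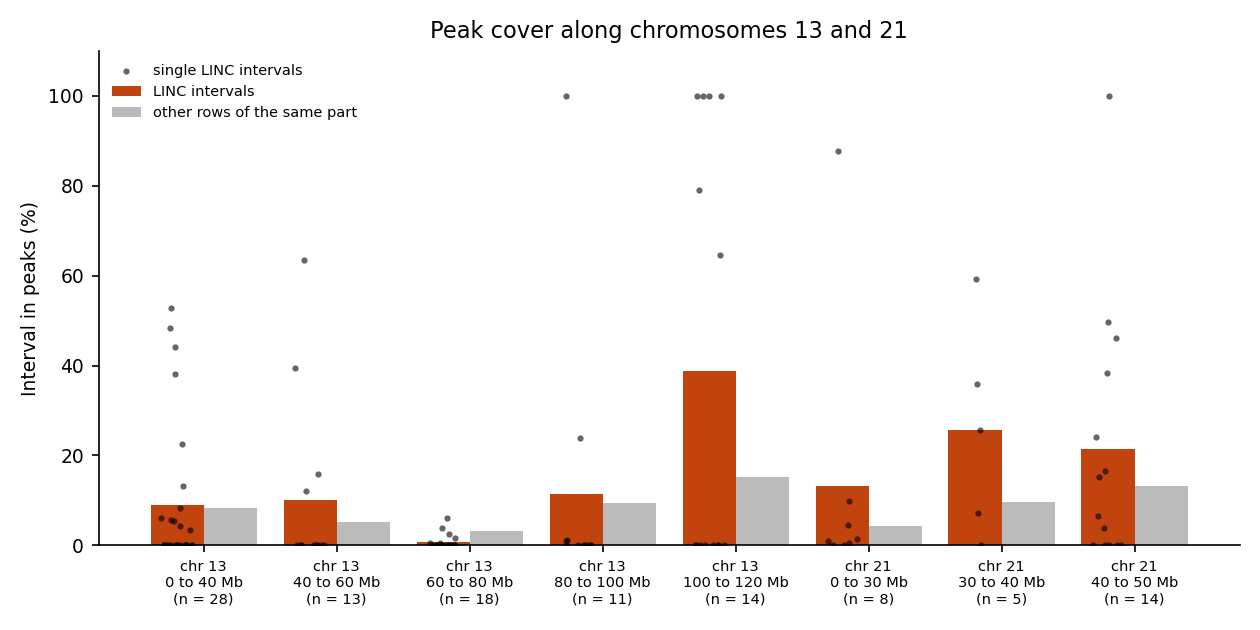
Mean share of interval in peaks (%) for LINC intervals and for the other intervals of the same stretch of chromosomes 13 and 21, with each LINC interval as a point. The bars are not adjusted for interval length. The tallest member bar is chromosome 13 beyond 100 Mb, 38.8% against 15.3%, and the lowest is chromosome 13 from 60 to 80 Mb, 0.847% against 3.10%.

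Outside chromosomes 8, 13 and 21 the picture was different for cover and similar for starts. The 78 members there had a median score of 45.6 (39.9 to 57.0) against 35 at like length. A score of 2 times the like-length value was reached by 14 (17.9%, where 16.7% of other intervals reached it). With chromosomes 13 and 21 left out of the comparison too, the shares were 21.8% and 16.9%. The 10 members that fell to 0.5 times or less made up 12.8%, against 19.3% of other intervals. Mean cover was 7.38% against 7.34%. A peak lay in 38 members (48.7%, like length 37.5%) and at the start of 18 (23.1%, like length 13.4%). The excess in mean cover was thus found on chromosome 21 and, on chromosome 13, mainly beyond 100 Mb. Before 100 Mb of chromosome 13, mean cover was 0.114 times the like-length value from 60 to 80 Mb. In the other stretches before 100 Mb it was 1.03 to 1.37 times that value. The excess in start peaks was found on all 3 sets.

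Overlap with other intervals and present gene type divided the members further. The 133 outside chromosome 8 that overlap nothing had a median score of 48.1 and the 56 that overlap something 48.4. The first set was shorter, with a median length of 5.91 kb against 18.2 kb. Their median ratios to the like-length values were 1.38 and 1.24. A start peak was found in 29 of the 133 (21.8%) and 19 of the 56 (33.9%), and in 7 of the 13 that overlap a protein-coding interval. At like length the shares were 14.1%, 13.7% and 13.2%. Against other intervals that also overlap nothing, the ratio of median scores was 1.24, that of start peak shares 1.36 and that of mean covers 1.14. The 161 members now listed as long noncoding had a median of 49.7 and a mean cover of 12.8%, and the 12 now listed as protein-coding 39.1 and 8.78%. The 14 without a RefSeq entry had 43.5 and 0.272%, with 1 peak among them.

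For scale, other classes outside chromosome 8 can be set beside the members' median of 48.1, without adjustment for length. The 381 antisense intervals had a median of 42.9, the 12134 clone-named ones 52.5 and the 17161 protein-coding ones 33.6. The 513 zinc finger genes had 115 and a mean cover of 43.9%, a level that 18 members passed.

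On chromosome 8 all 3 members were marked. LINC00208 (chr8:11433822-11438851, plus strand) had 957 reads and a score of 190 (178 to 203) against 75.2 for the 50 chromosome 8 intervals nearest in length, with 80.5% of it in 1 peak. LINC00051 (chr8:143279717-143290364, plus strand) had 137 (131 to 145) against 83.8, with 83.1% in peaks. LINC00293 (chr8:47733859-47765929, plus strand) had 116 (112 to 120) against 79.8, with 27.3%, and overlaps 6 other intervals. The 3 scores lay 1.45 to 2.53 times above the like-length values of the same chromosome.

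Each of the 3 held a peak and had a peak at its start, where 43.8% of the other chromosome 8 intervals held a peak and 19.5% had one at the start. Their median score was 137 against 79.8, and their mean cover 63.6% against 14.2%. With 3 members no more than these values can be said.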

How the data were processed

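Chromatin of KBM7 cells was analysed in 1 H3K9me3 library. The authors deposited, per the file headers, a count of reads per gene interval, the interval length in kb, and a score, a signal equal to the count divided by that length (largest difference 3.03e-06). It is not scaled for depth, control or copy number. The deposited peaks give start and end on a grid of 150 bp, with no height. Per the submitters' processing notes, the tools were Bowtie2 and MACS, with no version, and the build hg19. Filtering of reads, and whether peaks were called against IgG: not given in the sources used here.

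Each member was set against the 200 other intervals nearest in log length (50 on chromosome 8): the median for scores, the mean for cover and shares. A peak counted with 1 bp of overlap, and a start peak within 1 kb of the 5′ end. Calls were scores at 2 times or more, or 0.5 times or less, the like-length median. Named members were the highest and lowest scores, covers and widths, the longest, the largest ratios, and well-known genes; those named in runs along chromosomes 13 and 21, near the boundary, or without a peak were chosen after their values were seen. The members and lists were chosen with earlier results of these data known. RefSeq (GRCh38.p14) supplied names, types and promoters, and no coordinates were converted. Calculations used pandas 2.3.3 and numpy 2.4.6 under Python 3.11.15, with intervals from scipy 1.17.1 and figures from matplotlib 3.10.9, and were tested on simulated data. Alternatives covered comparators, length classes, peak width, overlap, window and chromosomes left out. Intervals of 5 X and 5 Y members were outside the rule.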

Additional observations from a re-analysis of the deposited data

Results flagged for a closer look

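Members of the same symbol family on chromosome X were outside the autosomal choice, and 3 of them had reads above the level that a count of 0 allows. LINC00269 had a score of 84.2 (95% Poisson interval 80.9 to 87.5) from 2556 reads, with 15% of it in peaks and none at its start. LINC00086 had 37.5 (31.6 to 44.2) and LINC00087 33.0 (27.3 to 39.4), both without a peak. The other 2 on X, LINC00106 and LINC00102, had 0 reads, which by counting error alone allows scores of up to 1.24 and 1.56. How reads with several matches were treated is not given, so the signal at these 2 is uncertain.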

How the results depend on the processing

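Of 179 alternative values, 163 stayed within the 95% interval of the value reported or, where it has none, within 1.5 times it, 16 did not, and 0 reversed. This band is wide: it holds the ratio of mean covers, 1.47, at 1.01 without chromosomes 13 and 21 and at 1.14 among intervals that overlap no other one, and the ratio of peak shares, 1.42, at 1.2 against antisense and clone-named intervals. Where only the comparison intervals changed, the members' own cover, peak share and start peak share could not move. Those values count as unchanged by construction, and a reversal could be counted only for ratios. The ratio of median scores, 1.35, was 1.75 against protein-coding intervals, 1.18 against the same chromosome, 1.07 against antisense and clone-named intervals, and 1.23 as a ratio of means with LINC00273 left out. The share at 2 times or more, 27.0%, was 36.5%, 20.6% and 17.5% against the same 3 sets (other intervals 18.1%, 16.7% and 13.4%) and 19.5% among intervals that overlap no other one (16.4%). Without chromosomes 13 and 21 the share at 0.5 times or less was 12.8% and the mean cover 7.38%, against 7.29% at like length. The median cover was 0.0%. With peaks of 900 bp or wider, 37.0% held a peak (like length 27.7%) and 18.5% had a start peak (11.4%). With a start window of 5 kb the share was 39.2% (28.8%) and its ratio 1.36, and among intervals that overlap no other one the ratio was also 1.36. The same-chromosome and antisense and clone-named comparators, the sets without chromosomes 13 or 21 and the mean without LINC00273 were chosen after seeing the data. No paired analysis was possible because there is 1 library. Scores of short members rest on few reads, and neither the sequence's mappability nor the IgG library was used.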

Other observations

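MicroRNA intervals nested in member hosts, on the same strand, had higher scores than the hosts but few reads. In LINC00478, with 35.7 reads per kb, MIR99A had 185 from 15 reads, MIRLET7C 245 from 23 and MIR125B2 101 from 9. In LINC00472, with 49.8, MIR30C2 had 306 and MIR30A 310, each from 22 reads. In LINC00461, with 57.0, MIR9-2 had 126 from 11. None of the 6 held a peak. They are 0.071 to 0.094 kb long, and other intervals under 0.5 kb had a median of 132, so the 6 lay on both sides of the level of their length.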
